A study of Mus musculus with 2 samples.

Results

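Among nuclei sorted from the mouse hypothalamus, 449 carried the hashtag of the paraventricular hypothalamus (PVH) together with RNA of Slc17a6 and no detected Sim1. They are called Slc17a6+ Sim1- nuclei here and are 449 of the 11409 columns of the deposited matrix. They were selected on their own measured counts. A column had to have between 800 and 5000 genes (both ends excluded), no more than 12000 unique molecular identifiers (UMIs, each 1 captured RNA molecule) and no more than 1% of mitochondrial UMIs. Its UMIs of the arcuate (ARC) hashtag had to be at most 0.5 times those of the PVH hashtag. It also needed at least 1 UMI of Slc17a6 and no UMI of Sim1, Slc32a1 or Gad1. The levels of these 4 genes in the selected nuclei follow from that choice and are no finding.

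The nuclei came from male C57BL/6J wild-type mice aged 10 to 12 weeks, untreated as far as the labels say, and passed a fluorescence sort for NeuN, which marks the nuclei of neurons. Capture on the 10x Genomics platform gave 1 pooled gene expression library, and hashtags were read from a second library. The labels name only the ARC, whereas the matrix holds 2 hashtags, called ARC and PVH, which tell the dissected tissues apart and not the mice. All mice were pooled, so that the data are 1 sample, no test was made, and intervals in this text are exact 95% intervals that cover counting error only.

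Slc17a6 encodes the vesicular transporter VGLUT2, which loads glutamate into synaptic vesicles and marks most excitatory neurons of the hypothalamus and thalamus. Sim1 encodes a transcription factor that PVH neurons need for their development, and most excitatory neurons of the PVH keep expressing it in the adult. Excitatory neurons with no Sim1 are found around the PVH, for example in the thalamus above it and in the ventromedial hypothalamus (VMH), where Nr5a1 is the defining transcription factor. A nucleus in which Sim1 RNA was absent and one in which it was present but not captured cannot be told apart by a count of 0.

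The filters on genes, UMIs and mitochondrial share left 10170 nuclei, of which 3743 lay on the PVH side and 540 on the ARC side. The Slc17a6+ Sim1- nuclei were 12.0% of the PVH side (interval 11 to 13.1%), beside 392 Slc17a6 nuclei with Sim1 and without Slc32a1 or Gad1, here called Sim1 glutamatergic. A further 1297 PVH-side nuclei (median 4358 UMIs) had no UMI of any of the 4 genes. The selected nuclei held 2357312 UMIs, with a median of 4841 UMIs per nucleus (range 1038 to 11970) and 2616 genes. The other 3294 PVH-side nuclei had a median of 4812 UMIs, and the Sim1 glutamatergic nuclei, which had to show a UMI of both Slc17a6 and Sim1, a median of 5767. No barcode occurred more than once.

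The hashtags separated the tissues weakly. The selected nuclei had a median of 47 ARC and 121 PVH hashtag UMIs, whereas all filtered nuclei had 60 and 91. HTODemux, the assignment by hashtag that the study used, called 333 of the 449 nuclei PVH singlets, 17 doublets and 0 ARC, and left 99 unassigned. The rule had many nuclei near its limits. There were 196 selected nuclei at a ratio of ARC to PVH UMIs of 0.4 to 0.5, and 117 nuclei with the same RNA pattern lay just outside, at a ratio above 0.5 and up to 0.6. In 317 of the 449 nuclei Slc17a6 rested on 1 UMI, in 87 on 2 and in 45 on 3 or more, up to 8. Just outside the RNA rule, 177 Sim1 glutamatergic nuclei had a single Sim1 UMI, and 131 PVH-side nuclei had Slc17a6 with Slc32a1 or Gad1 and no Sim1.

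**Figure D1:**
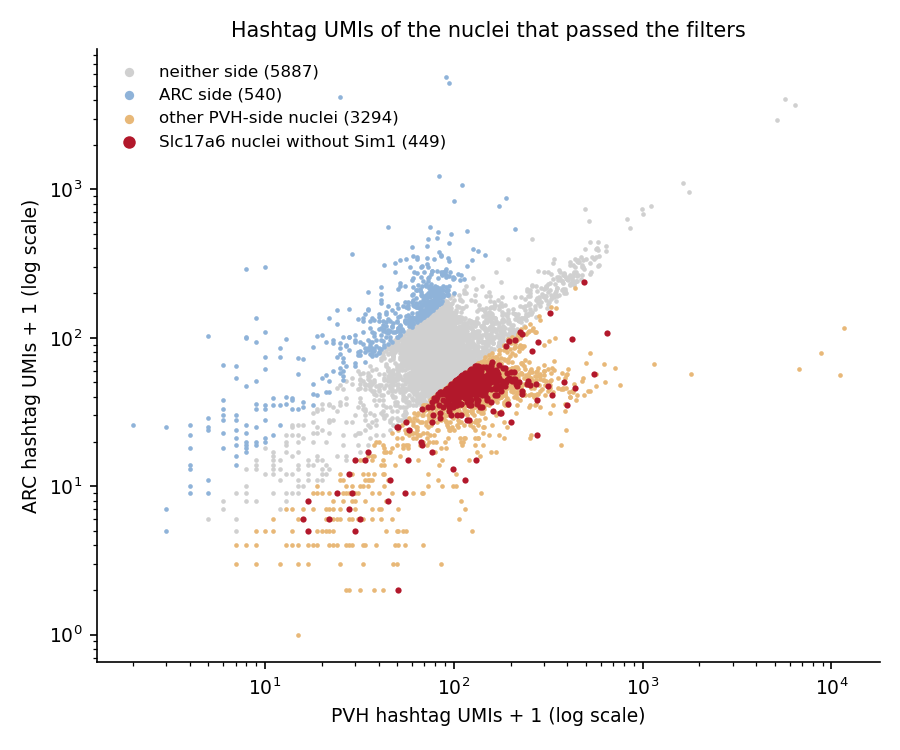
Hashtag UMIs of the nuclei that passed the filters, with PVH hashtag UMIs plus 1 on the horizontal and ARC hashtag UMIs plus 1 on the vertical axis, both logarithmic, and 1 point for each pair of values in each class. The 449 Slc17a6+ Sim1- nuclei, drawn on top of the others, lie along the lower edge of a single broad cloud at a median of 121 PVH and 47 ARC UMIs, with no gap between them and the 5887 nuclei of neither side.

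The label of glutamatergic neurons was checked against markers that the rule did not use. Neuronal genes were detected in most selected nuclei. Snap25, a protein of the synaptic release machinery, had a UMI in 93.3% of them at 652 counts per 1000000 UMIs (CPM), and Syt1, the calcium sensor of release, in 91.1% at 1106 CPM. The list of 5 neuronal genes summed to 2331 CPM against 2463 CPM in the other PVH-side nuclei, so that it does not set the selected nuclei apart. The other vesicular glutamate transporters were close to absent, with 1 UMI of Slc17a7 and 2 UMIs of Slc17a8 among all 449 nuclei. Gad2, which encodes a GABA-synthesising enzyme outside the rule, had a UMI in 116 nuclei (25.8%), against 59.9% of the nuclei in the GABA-rich clusters described below and 18.6% of the Sim1 glutamatergic nuclei. After thinning every nucleus to 1000 UMIs, the Gad2 share of the GABA-rich clusters was 18.4% instead of 59.9%. This thinned value cannot be set beside the unthinned shares of the selected and the Sim1 glutamatergic nuclei. Defining genes of astrocytes (Aqp4), oligodendrocytes (Opalin), their precursors (Pdgfra), endothelium (Cldn5), microglia (Tmem119) and tanycytes (Rax) had no UMI in any of the 449 nuclei. This limits the share of nuclei with a UMI to about 0.668%, an approximate 1-sided limit of 3 divided by 449 and not an exact interval. A count of 0 says nothing of expression below detection. Other genes of these lists were detected. The oligodendrocyte list summed to 50.1 CPM against 110 CPM in the other PVH-side nuclei, the microglia list to 126 against 116 CPM and the tanycyte and ependymal list to 39.5 against 33.3 CPM. The lists of oligodendrocyte precursors (15.3 against 12.7 CPM), endothelial and mural cells (9.33 against 8.50 CPM) and astrocytes (6.36 against 7.43 CPM) had the lowest sums. The part of such RNA in the results was not tested.

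Oxt and Agrp, a hormone gene of each tissue, were found at like levels on both sides. Oxt, which encodes oxytocin and marks magnocellular and parvocellular neurons of the PVH, was at 582 CPM in the Slc17a6+ Sim1- nuclei with a UMI in 90.9% of them, and at 597 CPM with a UMI in 94.5% of the ARC singlets under the same RNA rule (median depths 4841 and 5003.5 UMIs). Agrp, the gene of an appetite-raising peptide made in the ARC, was at 150 CPM and in 51.2% of the PVH-side nuclei against 153 CPM and 53.8% of the ARC singlets. Since the shares were alike in both tissues, they are not taken as expression by these nuclei, and the part of free RNA and of the weak hashtag separation in them was not tested.

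The 3743 PVH-side nuclei were clustered without the 4 genes of the rule, which gave 19 clusters, and the Slc17a6+ Sim1- nuclei were spread over many of them. The thresholds that sort the clusters were set after the data were seen. In 9 clusters with 1350 nuclei Sim1 reached at least 100 CPM, and these are called Sim1-rich. They held 174 of the 449 nuclei (38.8%, interval 34.2 to 43.4%). A further 72 (16%, 12.8 to 19.8%) lay in 5 GABA-rich clusters, in which Slc32a1 and Gad1 together exceeded 2 times the level of Slc17a6. One of these, cluster 12 with 112 nuclei and 6 of the 72, also had all 6 listed oligodendrocyte genes at 2-fold or more. Its neuronal genes had a median ratio of 0.978 to the other PVH-side nuclei. At a resolution of 1, the cluster led by the same genes (Gjc3 and Sox10) had 14 nuclei and held 0 of the selected ones. A cluster led by Tcf7l2 and Lhx9 held 53 (11.8%, 8.97 to 15.2%) and a VMH-like cluster 38 (8.46%, 6.06 to 11.4%). Another 28 (6.24%, 4.18 to 8.89%) lay in an unnamed cluster led by Tafa4, and 83 (18.5%, 15.0 to 22.4%) in the largest cluster, number 1, which had no single identity. The last nucleus lay in a cluster of 8 nuclei with astrocyte markers. The label therefore covers several kinds of nuclei. The largest share lies in the Sim1-rich clusters, but these also held 1350 of all 3743 PVH-side nuclei, a like share. Cluster 1, with 671 of the 3743, was alike in this, whereas the GABA-rich clusters held 1406. The selected nuclei were 48.6% of the Tcf7l2-led, 44.7% of the VMH-like and 24.6% of the Tafa4-led cluster, against 12.0% of the PVH side. These shares follow in part from the genes of the rule.

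**Figure D2:**
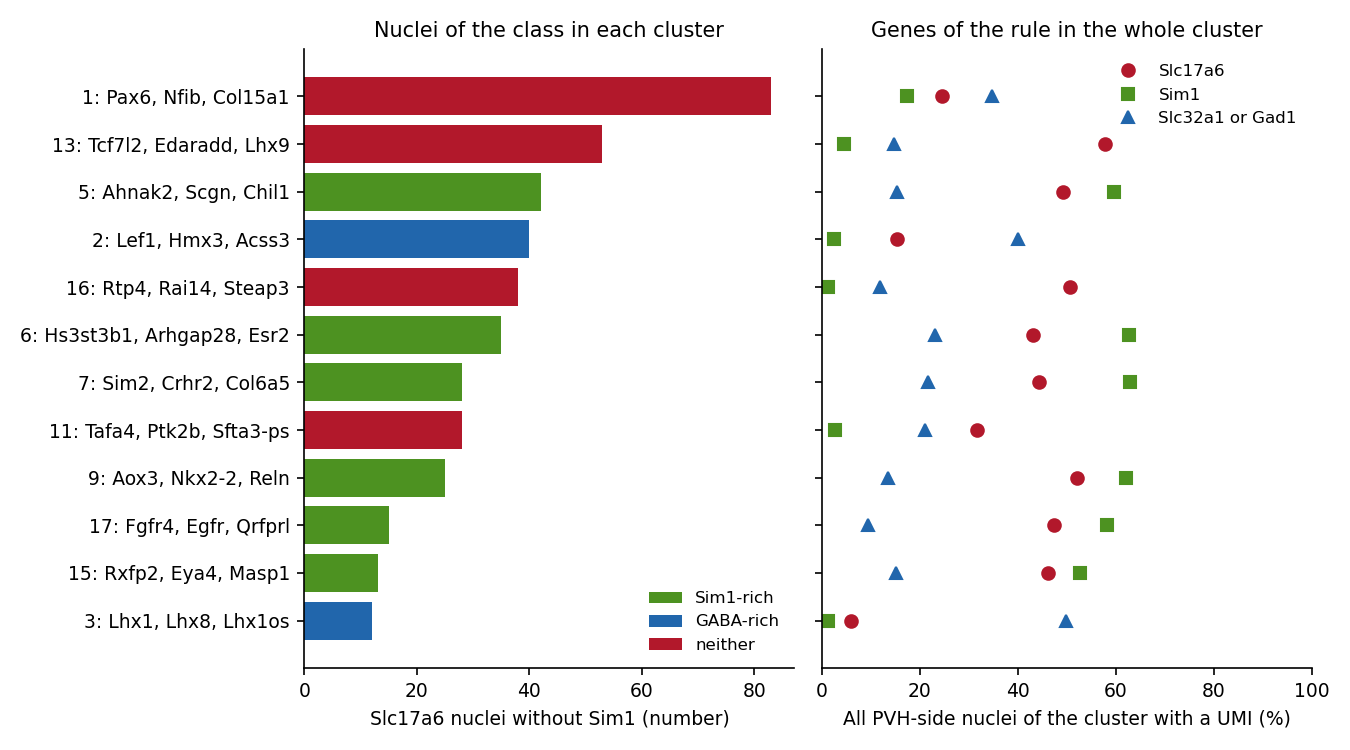
The 12 clusters that hold at least 10 Slc17a6+ Sim1- nuclei, each named by its number and 3 of its leading genes, with the number of these nuclei as bars on the left and the share of all PVH-side nuclei of the cluster with a UMI of Slc17a6, Sim1, or Slc32a1 or Gad1 as points on the right, in percent. Bar colour gives the kind of cluster, and the clusters led by Tcf7l2 (number 13) and Rtp4 (number 16, VMH-like) combine Slc17a6 in over 50% of nuclei with Sim1 in under 5%.

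The shares of Sim1 and Slc17a6 in whole clusters set the background of both calls. Sim1 had a UMI in 65.0% of the nuclei of Sim1-rich clusters at 243 CPM, and in 1.78% of the nuclei of GABA-rich clusters at 4.55 CPM, at median depths of 5271 and 4553.5 UMIs. After thinning every nucleus to 1000 UMIs the shares were 20% and 0.569%. Sim1 stood at 4.59% in the Tcf7l2-rich cluster and 1.18% in the VMH-like cluster, with 5 UMIs and 1 UMI in all. Slc17a6 was found in 9.17% of the nuclei of GABA-rich clusters, 45.7% of Sim1-rich clusters, 50.6% of the VMH-like cluster and 57.8% of the Tcf7l2-rich cluster, and after thinning in 2.56%, 11%, 14.1% and 14.7%. In the GABA-rich clusters Slc17a6 rested mostly on 1 UMI in the selected nuclei. Of these, 12.5% had 2 or more (interval 5.88 to 22.4%), against 50.9% in the Tcf7l2-rich cluster (36.8 to 64.9%) and 28.2% in the Sim1-rich clusters, and 56.9% of them had a Gad2 UMI (44.7 to 68.6%).

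The nuclei in Sim1-rich clusters were set beside the Sim1 glutamatergic nuclei of the same clusters, a comparison added after the data were seen. Of the 513 nuclei there with Slc17a6 and without Slc32a1 or Gad1, 174 (33.9%) had no Sim1 UMI. This share differed with depth. It was 52.5% of the 61 nuclei with under 4000 UMIs (interval 39.3 to 65.4%), 34.9% of the 352 nuclei with 4000 to under 7000 UMIs (29.97 to 40.2%) and 19% of the 100 nuclei with 7000 or more (11.8 to 28.1%). The median depth was 4840.5 UMIs without and 5695 with Sim1. The bins pool 9 clusters whose median depths ran from 4378.5 to 7037.5 UMIs and whose Sim1 ran from 182 to 392 CPM. The part of these cluster differences in the shares was not tested.

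Genes of PVH neurons were mostly at like levels with and without a Sim1 UMI in these clusters. Otp, a homeobox factor of neuroendocrine neurons, was at 43.8 CPM without and 43.4 CPM with Sim1 (ratio 1.01, 0.674 to 1.49). Arnt2, the partner protein with which SIM1 binds DNA, was at 236 and 217 CPM (ratio 1.09, 0.918 to 1.28), and the homeobox gene Uncx at 62.9 and 60.2 CPM (ratio 1.05, 0.748 to 1.45). Reln, encoding the secreted protein reelin, was at 134 and 126 CPM, and Trh, encoding thyrotropin-releasing hormone, at 38.2 and 40.9 CPM. Receptor genes were likewise close, with Ghr (growth hormone receptor) at 512 and 468 CPM and Calcr (calcitonin receptor) at 42.7 and 43.4 CPM. Some factors differed beyond the counting interval. Pou3f2, which PVH hormone neurons require, was lower without Sim1, at 68.5 against 112 CPM (ratio 0.609, 0.452 to 0.812), as were Foxp2 (ratio 0.602, 0.507 to 0.713) and Fign, encoding a microtubule-severing protein (0.55, 0.453 to 0.665). Ebf1 was higher, at 202 against 123 CPM (1.65, 1.35 to 2.00), and so was the chromatin organiser Satb1, at 25.8 against 9.86 CPM (2.62, 1.38 to 5.03). The 9 clusters were pooled, and the Slc17a6+ Sim1- nuclei made up from 4.76% of cluster 10 to 20.3% of cluster 17. The part of an unequal mix of clusters in these ratios was not tested. Of 10454 genes with at least 30 UMIs in both classes together, 0.584% were higher and 1.12% lower by 2-fold or more with detection in at least 5% of the higher class. None of the 7 PVH genes that could be compared passed that limit, which beside these shares is not a result about the list.

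The Tcf7l2-rich cluster had 109 nuclei, of which 48.6% were Slc17a6+ Sim1-. Tcf7l2 encodes a transcription factor of Wnt signalling that is expressed broadly by excitatory neurons of the thalamus, and Lhx9 encodes a LIM homeobox factor of diencephalic neurons. Of 10 thalamus genes, 7 were at 2-fold or more in this cluster over the other PVH-side nuclei, as were 5 of 6 genes on a list for the lateral hypothalamus, so that no place was assigned to it. A listed gene counted here with as few as 3 UMIs in the cluster and with no minimum share of nuclei. The share of all genes passing in this way is not given, so that these counts have no background. In its 53 Slc17a6+ Sim1- nuclei Tcf7l2 was at 527 CPM (interval 452 to 610) and had a UMI in 94.3% of nuclei. Lhx9 was at 101 CPM (69.7 to 141), Kitl, the ligand of the KIT receptor, at 201 CPM (156 to 255), and Rnf220, a ubiquitin ligase, at 1617 CPM (1484 to 1758). Ntng1, a synaptic adhesion protein of thalamic projection neurons, was at 2469 CPM and present in all 53 nuclei. Gbx2, a homeobox gene of the developing thalamus, had 3 UMIs, and Hcrt, the orexin gene of the lateral hypothalamus, had none. Otp and Pou3f2 had 3 UMIs and 1 UMI. These 53 nuclei held 14.3% of all UMIs of the Slc17a6+ Sim1- nuclei, but 89.9% of their Tcf7l2, 86.8% of their Rnf220, 81.1% of their Glis3, 81.0% of their Lhx9 and 80% of their Kitl UMIs. Foxp2 (50.7%), Zic4 (53.5%) and Ntng1 (53.4%) were shared more evenly with the rest.

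The VMH-like cluster had 85 nuclei, 44.7% of them Slc17a6+ Sim1-, and was named from 5 of 8 VMH genes at 2-fold or more, which were Nr5a1, Fezf1, Sox14, Nkx2-1 and Gpr149. In its 38 Slc17a6+ Sim1- nuclei Nr5a1 was at 27.3 CPM (interval 10.0 to 59.4), and these held 6 of the 7 Nr5a1 UMIs of all 449 nuclei. Gpr149, encoding an orphan receptor, was at 159 CPM (111 to 221). Fezf1 and Sox14 rested on 1 and 3 UMIs. The name uses the same low minimum of 3 UMIs in the cluster, and the share over all genes is not given. Otp had 1 UMI in these nuclei.

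The Tafa4-rich cluster, with 114 nuclei of which 24.6% were Slc17a6+ Sim1-, was shallower, at a median of 3464.5 UMIs. Its 28 Slc17a6+ Sim1- nuclei carried Sfta3-ps at 428 CPM (interval 312 to 572), the nuclear receptor gene Rorb at 1188 CPM (989 to 1415) and the homeobox gene Prox1 at 257 CPM (169 to 373). Ppp1r17, a gene of dorsomedial hypothalamic neurons, was at 85.5 CPM (39.1 to 162), on 9 UMIs. Gad2 was seen in 1 of the 28 nuclei. Too few listed markers passed for a name.

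Cluster 1 held 671 nuclei, of which 24.6% had Slc17a6, 17.4% Sim1 and 34.7% Slc32a1 or Gad1, so that it mixed excitatory and inhibitory nuclei. Its 83 Slc17a6+ Sim1- nuclei had Nfib, a nuclear factor I gene, at 232 CPM (interval 190 to 280) and the serotonin receptor gene Htr2c at 575 CPM (508 to 649). They held 31.3% of the Ebf3 and 60% of the Ebf2 UMIs of the 449 nuclei, with Ebf2 in 3 nuclei. At a finer resolution of 1, 47 of the 83 lay in a cluster of 276 nuclei with Sim1 at 122 CPM.

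**Figure D3:**
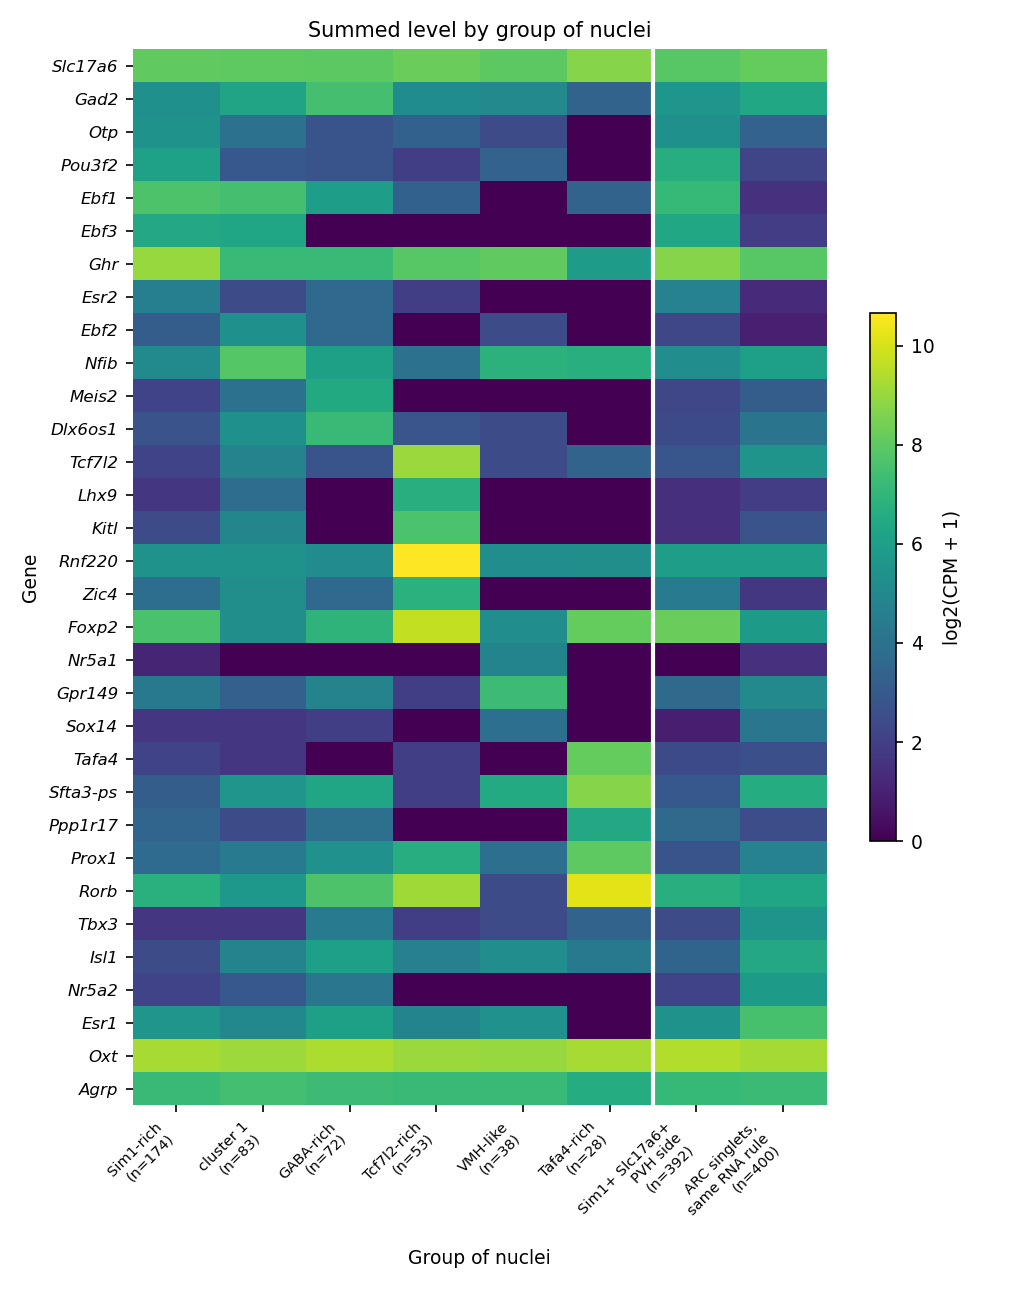
Heat map of log2(CPM + 1) from summed UMIs for 32 genes (rows) in the Slc17a6+ Sim1- nuclei of each kind of cluster (first 6 columns, 28 to 174 nuclei each) and, right of the white line, in 392 Sim1 glutamatergic nuclei and 400 ARC singlets under the same RNA rule. Tcf7l2, Lhx9, Kitl and Rnf220 are highest in the Tcf7l2-rich column, Otp and Pou3f2 in the Sim1-rich column and the Sim1 glutamatergic nuclei, and Oxt and Agrp have nearly the same colour in every column.

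Against the other 3294 PVH-side nuclei, few genes differed by 2-fold. Of 15544 genes compared, 0.174% were higher by 2-fold or more in the Slc17a6+ Sim1- nuclei and 0.0965% were lower. These are 42 genes, a number that ranged from 22 to 869 under other hashtag rules, the 869 with only 52 selected nuclei. The genes that led among the higher ones were those of the Tcf7l2-rich cluster. Kitl was at 36.1 against 6.20 CPM (ratio 5.82, 4.32 to 7.82), Lhx9 at 17.8 against 3.48 CPM (5.12, 3.36 to 7.73) and Glis3, a zinc finger factor, at 53.9 against 13.0 CPM (4.15, 3.31 to 5.19). Tcf7l2 was at 84.0 against 21.6 CPM (3.89, 3.26 to 4.64), Rnf220 at 267 against 78.7 CPM (3.39, 3.08 to 3.73) and Ntng1 at 662 against 302 CPM (2.19, 2.07 to 2.32). Bcl11b, a zinc finger factor of projection neurons, was at 26.3 against 11.5 CPM (2.29, 1.69 to 3.06). Under a hashtag ratio of 0.25 the ratio of Bcl11b was 0.834, on 3 UMIs in the selected nuclei. Tcf7l2 nevertheless had a UMI in only 14.0% of the 449 nuclei. Several of the lower ones were genes of inhibitory neurons, and the rule had removed nuclei with Slc32a1 or Gad1 from this side only. Meis2 was at 17.0 against 54.6 CPM (0.311, 0.220 to 0.426), Dlx6os1, the antisense RNA of a homeobox gene of GABA neurons, at 32.7 against 92.9 CPM (0.352, 0.276 to 0.442), and Gad2 at 64.5 against 139 CPM (0.465, 0.392 to 0.548). Nrxn3, a presynaptic adhesion gene, was at 1322 against 2688 CPM (0.492, 0.474 to 0.510).

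The comparison was repeated without the Tcf7l2-rich cluster on either side, which left 396 Slc17a6+ Sim1- nuclei and 3238 others. The higher share of 15460 genes was then 0.0712% and the lower share 0.149%. Kitl was at 8.42 against 4.09 CPM, a ratio of 2.06 (1.13 to 3.54) with a UMI in under 5% of nuclei on both sides. Lhx9 was at 3.96 against 1.92 CPM (2.06, 0.819 to 4.56) on 8 and 32 UMIs. The ratios of Glis3 (1.03, 0.647 to 1.59), Bcl11b (1.10, 0.685 to 1.69) and Tcf7l2 (0.766, 0.459 to 1.21) had intervals that included 1, Rnf220 was at 0.741 (0.585 to 0.928) and Ntng1 at 1.36 (1.26 to 1.47). Genes past 2-fold included Sfta3-ps (2.58, 2.08 to 3.17), Tafa4, encoding a secreted protein (2.29, 1.52 to 3.38), and Gpr149 (2.20, 1.65 to 2.91). Meis2 (0.356, 0.253 to 0.488), Dlx6os1 (0.393, 0.307 to 0.495) and Gad2 (0.492, 0.412 to 0.583) were again lower.

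**Figure D4:**
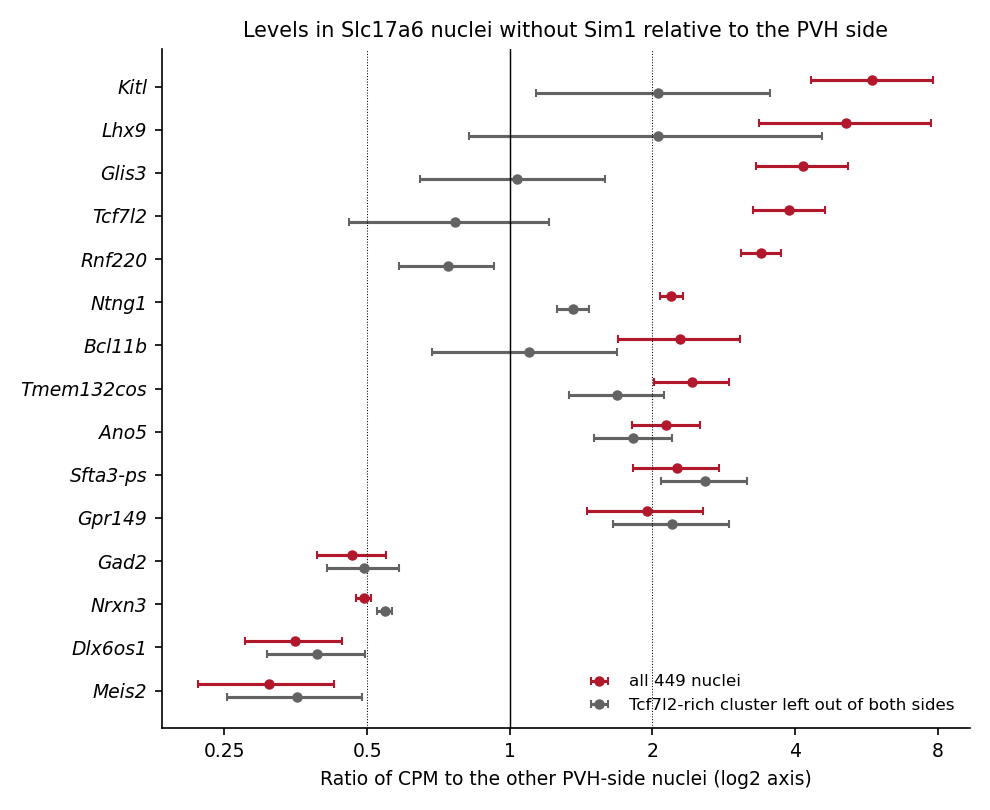
Ratio of CPM in Slc17a6+ Sim1- nuclei to the other PVH-side nuclei on a log2 axis for 15 genes, for all 449 against 3294 nuclei (red) and with the Tcf7l2-rich cluster left out of both sides, 396 against 3238 nuclei (grey), with exact 95% intervals of counting error and dotted lines at 0.5 and 2. Kitl, Lhx9, Glis3, Tcf7l2 and Rnf220 lie above 3 with all nuclei and at or below 2.06 without the cluster, while the points of Sfta3-ps, Gad2, Dlx6os1 and Meis2 lie on the same side of 1 in both.

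Few listed genes passed 2-fold against the other PVH-side nuclei, where the share over all genes was itself 0.174% higher and 0.0965% lower, so that a count of 0 in a list of this size is not a result about the list. None of the 27 neuropeptide genes compared passed 2-fold, with a median log2 ratio of -0.01 beside -0.01 over all genes. The same held for none of 36 receptor genes for hormones and appetite peptides (median -0.16), none of 28 genes of glutamate supply and reception (0.03) and none of 19 GABA and glycine receptor genes (0.05). Lepr, the leptin receptor gene, was at 11 against 9.50 CPM (ratio 1.16, 0.736 to 1.76), and Mc4r, the melanocortin-4 receptor gene, had 3 UMIs in the 449 nuclei. Of 64 transcription factor genes, 3 were higher (Lhx9, Bcl11b and Tcf7l2) and Meis2 was lower. Of 7 GABA genes, Gad2 was lower and no other passed. The median log2 ratio of these 7 genes was -1.11, beside -0.01 over all genes, so that the low ratios were not confined to Gad2. A call also required a minimum share of nuclei with a UMI in the higher class.

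Against the 392 Sim1 glutamatergic nuclei, 1.24% of 11860 genes were higher by 2-fold or more and 0.902% lower. Kitl was at 36.1 against 1.68 CPM (ratio 21.4, 8.07 to 80.4), Tcf7l2 at 84.0 against 6.31 CPM (13.3, 7.87 to 24.2) and Lhx9 at 17.8 against 1.68 CPM (10.6, 3.84 to 40.6). Prox1 was at 41.2 against 5.89 CPM (6.98, 3.97 to 13.2) and Sfta3-ps at 51.3 against 6.73 CPM (7.62, 4.51 to 13.8). Dlx6os1 was higher than in the Sim1 glutamatergic nuclei, at a ratio of 7.76 (4.00 to 16.8), and 66.2% of its UMIs in the 449 nuclei came from those in GABA-rich clusters. Nxph1, a secreted ligand of neurexins, was at 365 against 74.5 CPM (4.90, 4.17 to 5.80). Of 42 transcription factor genes 12 were higher, among them Nr2f2 (2.83, 1.96 to 4.14), Isl1 (2.45, 1.49 to 4.18) and Nfib (2.36, 1.82 to 3.07), and 2 were lower, one of them Pou3f2.

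The PVH genes were lower than in the Sim1 glutamatergic nuclei by the median, at a log2 ratio of -0.51 over 7 genes beside 0.01 over all genes, and 1 passed 2-fold. This was Pou3f2, at 29.3 against 98.1 CPM (ratio 0.299, 0.225 to 0.392). The rule set these classes apart by Sim1, so that lower levels of genes found together with Sim1 follow in part from the choice. Of the 392 Sim1 glutamatergic nuclei, 339 lay in Sim1-rich clusters, against 174 of the 449. Otp was at 22.1 against 39.6 CPM (0.558, 0.389 to 0.791), Reln at 0.703 of the level (0.581 to 0.848) and Arnt2 at 0.815 (0.712 to 0.933). Crh, the gene of corticotropin-releasing hormone, was at 2.97 against 6.31 CPM on 7 and 15 UMIs (0.470, 0.162 to 1.23). Among 28 receptor genes 3 were lower, which were Esr2, the oestrogen receptor beta gene (0.470, 0.289 to 0.748), Galr1, a galanin receptor (0.467, 0.256 to 0.823), and Cckar, a cholecystokinin receptor (0.412, 0.167 to 0.932). The 174 nuclei in Sim1-rich clusters held 37.8% of the UMIs of the 449 nuclei and 88.4% of their Pou3f2, 75% of their Otp, 75% of their Esr2 and 63.5% of their Ghr UMIs.

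The same RNA rule applied to ARC nuclei shows what the hashtag adds to these genes. On the ARC side 55 nuclei met it (median 5901 UMIs), and because they were few, the 400 ARC singlets of HTODemux under the same rule, with medians of 96 ARC and 77 PVH hashtag UMIs, were compared as well, a choice made after the data were seen. Of 11749 genes, 1.74% were higher and 1.74% lower by 2-fold or more in the PVH-side Slc17a6+ Sim1- nuclei than in the ARC singlets. Against the 55 ARC-side nuclei 6.73% of 10303 genes were higher and 3.13% lower.

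Ebf1, Ebf3, Uncx, Zic4, Zic1 and 3 of 7 PVH genes were higher on the PVH side than in the ARC singlets. Ebf1, an early B-cell factor gene, was at 123 CPM against 1.87 CPM in the ARC singlets (ratio 65.5, 25.3 to 242), and the 55 ARC-side nuclei had 1 Ebf1 UMI. Ebf3 (16.9, 7.54 to 47.1), Uncx (16.1, 6.02 to 60.7), Zic4 (12.9, 5.27 to 40.9) and Zic1 (11.3, 4.97 to 31.9) were higher as well. The 3 PVH genes were Pou3f2 (7.82, 3.76 to 18.8), Reln (2.84, 2.12 to 3.85) and Otp (2.36, 1.38 to 4.17), and against the 55 ARC-side nuclei 1 of 7, Pou3f2, passed 2-fold. Lhx9 was at 6.35 times the level (2.68 to 18.3) and Kitl at 6.42 times (3.49 to 12.9). In the 55 ARC-side nuclei Kitl and Lhx9 had no UMI. Tcf7l2 was closer between the tissues, at 84.0 against 44.9 CPM (1.87, 1.46 to 2.41).

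Of 8 arcuate genes 5 were lower on the PVH side than in the ARC singlets, namely Pomc, Tbx3, Tac2, Isl1 and Nr5a2, and none was higher. Against the 55 ARC-side nuclei 4 of 8 were lower, without Pomc (ratio 0.881, 0.608 to 1.32), and Ghrh passed 2-fold upward on 1 ARC-side UMI (4.68, 0.781 to 190). Tbx3, a T-box factor of arcuate neurons, was at 5.51 against 44.9 CPM (ratio 0.123, 0.0631 to 0.220), the nuclear receptor gene Nr5a2 at 5.09 against 54.3 CPM (0.0938, 0.0471 to 0.170) and the LIM homeobox gene Isl1 at 23.8 against 85.2 CPM (0.279, 0.203 to 0.378). The relaxin receptor gene Rxfp1 was at 3.82 against 107 CPM (0.0358, 0.0162 to 0.0691). Of 27 receptor genes for hormones and appetite peptides 9 were lower and 1, Htr2c, was higher, beside 1.74% of all genes in each direction. Against the 55 ARC-side nuclei 8 of 23 were lower and 2 higher, beside 3.13% and 6.73%. Esr1, the oestrogen receptor alpha gene, was at 40.7 against 190 CPM (0.215, 0.170 to 0.269), Prlr, the prolactin receptor gene, at 62.8 against 172 CPM (0.366, 0.3 to 0.444), and Lepr at 11 against 26.7 CPM (0.414, 0.25 to 0.669). Oxt and Agrp were at ratios of 0.976 (0.903 to 1.05) and 0.981 (0.842 to 1.14), so that neither differed between the tissues beyond counting error.

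**Figure D5:**
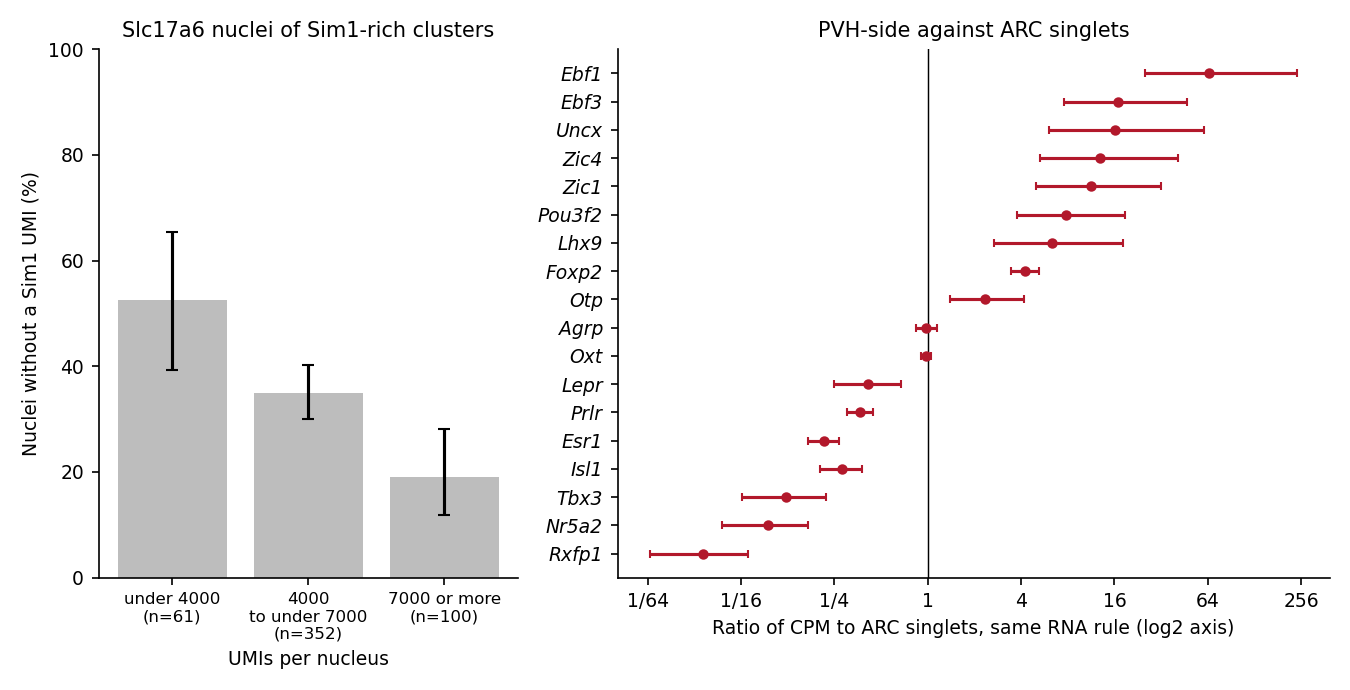
Left, share in percent of Slc17a6 nuclei without Slc32a1 or Gad1 in Sim1-rich clusters that had no Sim1 UMI, by UMIs per nucleus (52.5%, 34.9% and 19%). Right, ratio of CPM in the 449 Slc17a6+ Sim1- nuclei to 400 ARC singlets under the same RNA rule for 18 genes, on a log2 axis with a line at 1, from Ebf1 at 65.5 to Rxfp1 at 0.0358; bars are exact 95% intervals of counting error in both panels.

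The genes named most often lie at these places in the GENCODE M21 annotation of GRCm38. Slc17a6 is on the plus strand of chromosome 7 from 51622006 to 51671119, and Sim1 on the plus strand of chromosome 10 from 50894754 to 50989152. Tcf7l2 is on the plus strand of chromosome 19 from 55741820 to 55933654 and Lhx9 on chromosome 1, minus strand, from 138825186 to 138848577. Otp lies on chromosome 13 from 94875602 to 94885130, Pou3f2 on chromosome 4 from 22482780 to 22488366, Kitl on chromosome 10 from 100015630 to 100100416 and Rnf220 on chromosome 4 from 117271463 to 117497052. Slc17a6 overlaps Gm45072, Tcf7l2 overlaps Ppnr and Rnf220 overlaps Gm12843, Gm12828 and Gm12827, and how the counting divided reads between such neighbours was not tested.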

How the data were processed

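The values deposited by the authors are counts of UMIs, not normalized, for 32285 genes and 2 hashtags in 11409 barcodes. Cell Ranger is given as 5.0 in the labels and 4.0.0 in the matrix header, and the build is mm10 per the submitters' processing notes. No source used here says whether intronic reads were counted. Of the gene identifiers, 32158 were found in GENCODE M21.

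UMIs were summed over the nuclei of a class and divided by all gene UMIs (CPM, per 1000000). Intervals are exact Poisson for CPM, exact Clopper-Pearson binomial for shares and exact conditional binomial for ratios. PCR and capture affect UMIs before counting, which the intervals do not cover. A gene was compared with at least 30 UMIs over both classes and called at 2-fold with a UMI in at least 5% of nuclei of the higher class. Shares were also computed after thinning each nucleus to 1000 UMIs, which left out none. Clustering of the PVH side used 2000 variable genes without the 4 genes of the rule, 30 components, 20 neighbours and Leiden at a resolution of 0.55 (scanpy 1.11.5, leidenalg 0.10.2, scipy 1.17.1, numpy 2.4.6, Python 3.11.15). HTODemux was run in Seurat 5.3.0 (R 4.3.3) with a positive quantile of 0.8. Doublets were treated by hashtag only, so that doublets within a tissue remain. Figures were drawn in matplotlib 3.10.9.

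The nuclei, gene lists and comparisons were chosen with earlier results of these data known. Named genes are list members, the 15 highest and 10 lowest of each comparison ranked by the bound of the ratio nearest 1, and the 8 leading genes of clusters with at least 5% of the Slc17a6+ Sim1- nuclei; Fign, Foxp2 and Ebf1 in Sim1-rich clusters, and Ebf2, Htr2c and Nfib in cluster 1, were picked out after their values were seen. Groups of clusters, depth bins, the comparison within Sim1-rich clusters and that without the Tcf7l2-rich cluster on either side were chosen once the data had been examined. On simulated counts of the comparison with the other PVH-side nuclei (15544 genes), 98.5% of 200 genes changed 4-fold passed 2-fold, and the interval covered 96.0% of unchanged genes. The simulated counts were Poisson, the model behind the intervals, so that this coverage follows from the model and checks the calculation only. It says nothing of how UMIs of real genes are spread unevenly over nuclei and clusters. The alternatives tried were other hashtag, gene and depth rules, other UMI minimums, thinning, and other clusterings. For single genes, means of log-normalized values and leaving out the nucleus with the most UMIs were tried as well.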

Additional observations from a re-analysis of the deposited data

How the results depend on the processing

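No paired analysis was possible because the data are 1 pooled sample and no result comes from a test. The Slc17a6+ Sim1- nuclei, 12.0% of the PVH side, were 3.53% when 2 or more Slc17a6 UMIs were required and 8.9% when a Gad2 UMI excluded a nucleus. With ARC at most 0.25 times PVH hashtag UMIs they were 52 of 445 nuclei, so that values under that rule rest on few nuclei and UMIs. The number of genes past 2-fold in either direction depended on these rules and, in some comparisons, on the UMI minimum of a gene. With at least 3000 UMIs per nucleus it stayed close, at 48 against the other PVH-side nuclei and 253 against Sim1 glutamatergic nuclei. Against the other PVH-side nuclei it was 42, and 869 with ARC at most 0.25 times PVH hashtag UMIs, 22 with ARC below PVH, 69 with HTODemux singlets, 318 with 2 or more Slc17a6 UMIs and 82 without Gad2. With the Tcf7l2-rich cluster left out of both sides it was 34, and 967 at 0.25, 381 with 2 or more Slc17a6 UMIs and 71 without Gad2. Against Sim1 glutamatergic nuclei it was 254, and 71 over genes with at least 100 UMIs. Within Sim1-rich clusters it was 178, and 388 and 5 over genes with at least 10 and 100 UMIs. Against the ARC side it was 1015, and 291 with ARC below PVH for the PVH side and the reverse for the ARC side, 432 with HTODemux singlets of both tissues, 409 with ARC singlets alone (added after the data were seen), and 1530 and 247 over genes with at least 10 and 100 UMIs. At 0.25 the ARC side held under 10 such nuclei and was not computed.

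The share in Sim1-rich clusters (38.8%) was 49.4% at a resolution of 1, 50.6% with 20 components and 52.1% with 3000 variable genes. It was 53.5% with the genes of the rule kept and 25% (13 of 52 nuclei) at a hashtag ratio of 0.25. The VMH-like cluster (8.46%) held 3.79% at a resolution of 0.3, 2.90% with 20 components and 5.77% (3 of 52 nuclei) at 0.25. The Tafa4-rich cluster (6.24%) held 11.1% with 20 components, and the Tcf7l2-rich cluster (11.8%) 20.5% with 2 or more Slc17a6 UMIs. Of 894 values for single genes under an alternative, 702 were counted as unchanged. For 73 of these, differences of mean log-normalized values, only the direction was compared, and the others stayed within the interval of the value reported. A further 189 left it, 72 of them by thinning, and 3 changed direction. At 0.25 these were Bcl11b (ratio 0.834, on 3 UMIs in the selected nuclei) and 9630013A20Rik (1.29, on 4 UMIs) against the other PVH-side nuclei. The last was 9630013A20Rik (1.22) against the ARC side without the nucleus with most of its UMIs. The cause was not tested. At this depth, with Slc17a6 on 1 UMI in 317 of 449 nuclei, absent and uncaptured RNA cannot be told apart in a single nucleus.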
